A study of Homo sapiens with 10 samples.

Results

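The comparison set SK-Hep1 cells against HepG2 cells that carried the same control decoy. Of the 10 libraries in the series, 5 entered it, chosen by their labels: 3 of HepG2 NC TuD and 2 of SK-Hep1 NC TuD. A tough decoy (TuD) is a stabilised RNA hairpin with exposed sites that hold a microRNA away from its targets, and NC TuD is the negative control form. The other 5 libraries came from the same lines with a decoy that binds members of the miR-17 family (miR-17 TuD, 3 of HepG2 and 2 of SK-Hep1). They shared in the estimate of spread and served to repeat the comparison. Per the labels, every group received lentivirus for 48 h (multiplicity of infection 5, 10 µg/mL polybrene). Selection took 2 weeks of puromycin (1 µg/mL) in 10% serum, after which the surviving colonies of each arm were combined. An arm of a line is thus a single stable line, and no group was free of virus or puromycin. The labels do not say that replicates were separate cultures, so the p-values measure the spread between these libraries, which may be technical. What distinguishes the parental lines cannot be told apart from changes acquired while each stable line was being made.

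The labels call both lines hepatocellular carcinoma. HepG2 is widely used as a hepatocyte model: it secretes plasma proteins and grows as epithelial islands. SK-Hep1 came from a liver adenocarcinoma, grows as spindle-shaped adherent cells, and has been proposed to be of endothelial origin. In hepatocytes a network of liver-enriched transcription factors (the HNF1, HNF4, FOXA and CEBP families) keeps each other and the secretory and metabolic genes active. Mesenchymal cells instead make vimentin filaments, interstitial matrix, and integrins that grip it. The question that follows from the labels is how far the control transcriptomes of these lines lie apart, since it is the base on which any effect of the miR-17 decoy is read in each.

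The starts of 4 genes that the lines use differently are shown with short motifs of HNF1, of AP-1 (stress signalling) and of TEAD (YAP signalling). The 4 genes were chosen by hand and do not stand for the other genes of either line. None held an HNF4 match, and motifs of the FOXA and CEBP families were not searched. ALB (serum albumin) and AFP (alpha-fetoprotein, its fetal relative) were high in HepG2, IL8 (the neutrophil chemokine also named CXCL8) was high in SK-Hep1, and CTGF (a matricellular YAP target also named CCN2) was lower in SK-Hep1 than in HepG2. Each is the 200 bases before the annotated start from RefSeq on GRCh38.p14, read 5′ to 3′ on the gene's strand, at chr4:73404087-73404286 (plus strand), chr4:73436021-73436220 (plus), chr4:73740369-73740568 (plus) and chr6:131951373-131951572 (minus). Capitals mark every match, on either strand, to HNF1 (GTTAATNAT), HNF4 (CAAAGTCCA), TEAD (CATTCC), AP-1 (TGANTCA) or a TATA box (TATAAA).
ALB: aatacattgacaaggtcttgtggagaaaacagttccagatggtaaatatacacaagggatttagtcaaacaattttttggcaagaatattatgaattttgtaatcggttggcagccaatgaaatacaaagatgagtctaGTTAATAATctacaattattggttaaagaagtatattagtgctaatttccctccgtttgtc
AFP: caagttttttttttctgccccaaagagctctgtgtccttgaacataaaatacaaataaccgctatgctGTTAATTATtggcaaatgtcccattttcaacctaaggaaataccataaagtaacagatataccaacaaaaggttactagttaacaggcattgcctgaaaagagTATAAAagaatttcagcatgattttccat
IL8: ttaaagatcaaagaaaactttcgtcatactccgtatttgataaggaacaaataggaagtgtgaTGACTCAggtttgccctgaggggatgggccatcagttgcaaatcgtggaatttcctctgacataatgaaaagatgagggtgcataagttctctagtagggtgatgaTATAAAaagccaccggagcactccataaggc
CTGF: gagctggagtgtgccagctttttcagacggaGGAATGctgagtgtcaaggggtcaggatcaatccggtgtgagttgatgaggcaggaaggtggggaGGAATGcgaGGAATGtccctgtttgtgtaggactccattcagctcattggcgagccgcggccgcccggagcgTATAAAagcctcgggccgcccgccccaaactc
ALB and AFP each held 1 HNF1 match, starting 61 and 132 bases before the start. IL8 held 1 AP-1 match at 137 bases, and CTGF held 3 TEAD matches on the opposite strand at 169, 104 and 95 bases. AFP, IL8 and CTGF held a TATA box at 29, 31 and 32 bases. Of all 27305 RefSeq promoters of this length, 0.564% held the HNF1 letters, 0.245% HNF4, 9.47% TEAD, 5.39% AP-1 and 8.92% the TATA box. The CG dinucleotide occurred 2 times in the ALB window, 1 time in AFP, 4 times in IL8 and 12 times in CTGF, against a median of 9 over all promoters. A match describes letters in these windows and is not evidence of binding.

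Reads counted to genes came to 12884225 to 15076431 per library, so that 1 count equals 0.0657 to 0.0795 CPM (the count's share of its library in parts per 1e+06, with TMM-scaled library size). A count of 0 allows up to 3 counts, or 0.197 to 0.239 CPM. Distances were root mean squares over 9829 genes with a mean of 10 CPM or more over all 10 libraries. Libraries of HepG2 NC TuD lay 0.160 to 0.176 log2 apart and those of SK-Hep1 NC TuD 0.189 apart, against 2.51 to 2.55 between lines. Chi-square per degree of freedom between replicates was 1.81 to 2.93, above the 1 that counting error alone gives. No 2 libraries were alike enough to be 1 library. The 10 most abundant genes took 8.77% to 9.02% of the counts in HepG2 and 5.53% to 5.58% in SK-Hep1.

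Most of the transcriptome differed between the lines. Of 13349 genes tested, 11578 (86.7%) were called at an adjusted p below 0.05 by edgeR, 5865 (43.9%) higher in SK-Hep1 and 5713 (42.8%) lower. In 11504 of those called, the lines' libraries did not overlap. Called genes are picked for separation, and the share over all genes tested was not counted, so this does not add to the calls. A call alone therefore says little about a gene here, and the size of the difference carries the description. By a second rule, called and at least 4-fold apart, 1822 genes (13.6%) were higher in SK-Hep1 and 1809 (13.6%) were lower. The median size of a called difference was 1.06 on the log2 scale, and 3335 called genes were less than 1.5-fold apart. Among the 10497 genes with a mean of at least 1 CPM in both lines, 8896 were called and 1183 were at least 4-fold apart. Differences below are log2 fold changes, SK-Hep1 minus HepG2, with n = 3 and 2. The value after ± is the size of the difference over the square root of edgeR's F statistic. It is an approximate standard error for genes well counted in both lines. Where a line held few counts, it can be smaller than counting error alone and is no measure of precision. All adjusted p-values are from edgeR over all genes tested. A gene that passes the filter through only the line where it is high had to differ, so the counts over gene lists describe the lists and do not test them. Each list count is to be read beside the shares over all genes tested, 43.9% higher, 42.8% lower and 13.6% at 4-fold in each direction. Exceptions and some other members of a list were picked out after their values were seen, among them ROBO4, CD34, ENG, CLDN7 and CYP27A1. An exact permutation test of 3 libraries against 2 cannot go below 0.1 (two-sided) for a single gene.

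**Figure D1:**
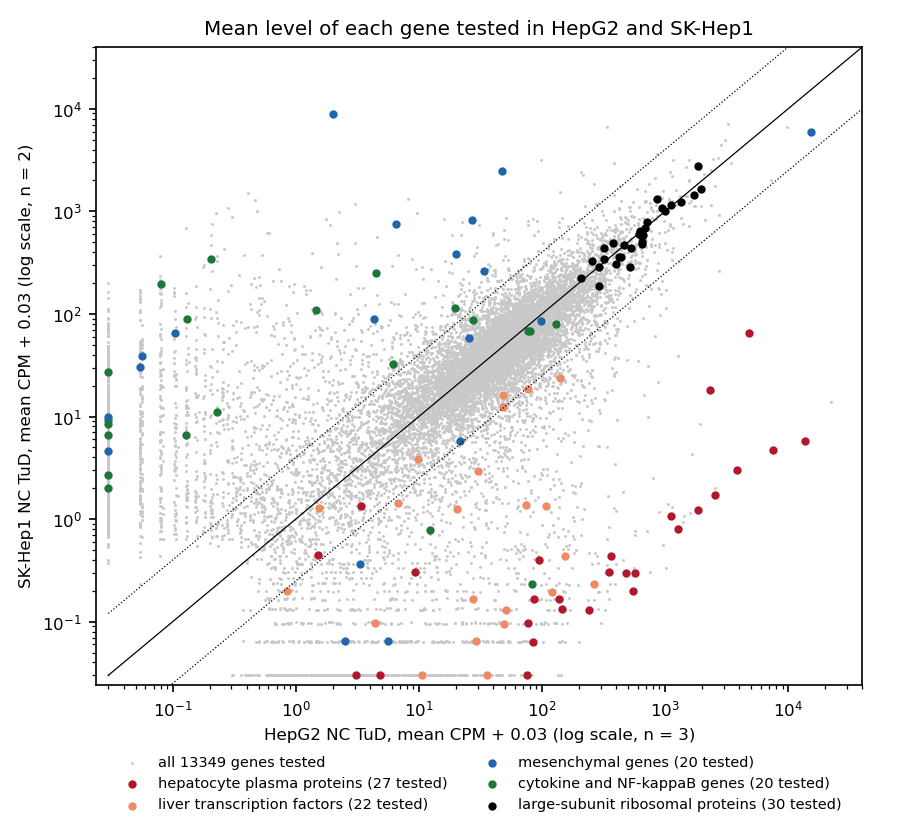
Mean CPM of each gene tested in SK-Hep1 NC TuD (vertical, n = 2) against HepG2 NC TuD (horizontal, n = 3), with 0.03 added and both axes on a log scale; colours mark listed gene groups, the solid line equal levels and the dotted lines a 4-fold difference. Plasma protein genes lie along the bottom edge (25 of 27 tested at least 4-fold lower in SK-Hep1), while 13 of 20 mesenchymal genes tested lie at least 4-fold above the diagonal.

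The first results concern transcripts abundant in HepG2 and a small fraction of that level in SK-Hep1, where the SK-Hep1 replicates differed. Over 122 genes at 100 CPM or more in HepG2 and under 0.5% of that in SK-Hep1, SK-Hep1 NC TuD replicate 1 held 998 counts, 0.0707% of the HepG2 level. Replicate 2 held 1719 counts, or 0.114%. The SK-Hep1 miR-17 TuD libraries held 0.0545% and 0.0492%. ALB alone had 59 and 113 counts in the SK-Hep1 NC TuD libraries and 0 and 4 in those of SK-Hep1 miR-17 TuD. The reverse set of 94 SK-Hep1 genes stood at 0.0791% to 0.0964% of the SK-Hep1 level in the HepG2 NC TuD libraries. Between the SK-Hep1 replicates the ratio was not the same for every gene: replicate 2 was 3.27 times replicate 1 for TF, 1.79 times for ALB and 1.00 times for APOE, in CPM. Whether such counts come from these cells or from other libraries was not tested. Where leaving out 1 library moved a fold by over 1.5-fold, at more than 3 counts in the lower line, it is given with and without that library. Folds that moved less, such as those of ALB and APOB, also rest on these counts and are given once.

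**Figure D2:**
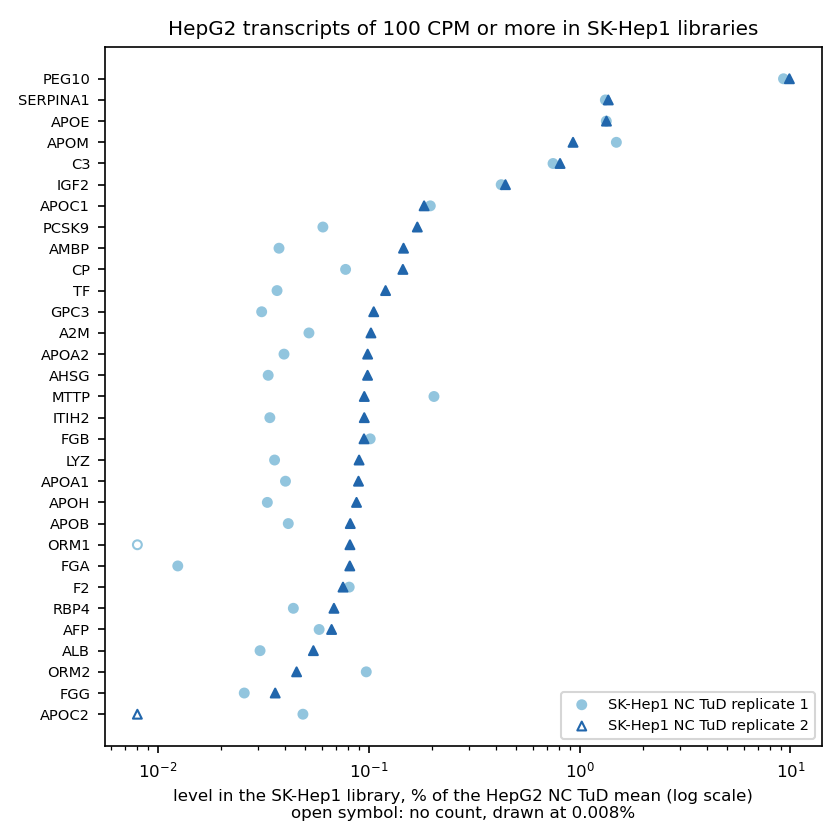
Level of HepG2 transcripts in each SK-Hep1 NC TuD library, as a percentage of the HepG2 NC TuD mean (log axis, 1 row per gene, 1 symbol per replicate, open where no read was counted). ALB sat at 0.0305% and 0.0547%, and most genes lie further right in replicate 2.

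Plasma proteins, the main secretory product of hepatocytes, were nearly missing from SK-Hep1. Of 30 listed genes 27 passed the filter on low counts, all 27 of these were lower in SK-Hep1, and 25 were at least 4-fold lower. Their median log2 difference was -10.28, or -10.05 with genes of no SK-Hep1 count set at their limit, against 0.02 over all genes tested. Together the listed genes came to 41765 to 42428 CPM in the HepG2 libraries and 97.2 to 113 CPM in those of SK-Hep1. ALB stood at 13899.6, 13534 and 13283 CPM in the HepG2 libraries and 4.15 and 7.42 CPM in the SK-Hep1 libraries, a difference of -11.18 ± 0.097 (adjusted p = 7.97e-31). The lowest HepG2 library lay far above the higher SK-Hep1 library. AFP, silenced in adult liver and restored in many liver tumours, stood at 7575, 7567 and 7304 CPM in the HepG2 libraries and 4.36 and 4.99 CPM in the SK-Hep1 libraries (-10.64 ± 0.071). TF, the iron carrier transferrin, stood at 3863, 3819 and 3785 CPM in the HepG2 libraries and 1.41 and 4.6 CPM in the SK-Hep1 libraries, with the higher SK-Hep1 value in replicate 2. Its difference was -10.29, but -9.70 without SK-Hep1 replicate 1 and -11.40 without replicate 2. AHSG, the mineral-binding fetuin-A, differed by -10.53, and by -11.53 without SK-Hep1 replicate 2.

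Other plasma proteins were not all as low. SERPINA1, the elastase inhibitor alpha-1-antitrypsin, stood at 4833, 4709 and 4896 CPM in the HepG2 libraries and 63.8 and 65.9 CPM in the SK-Hep1 libraries, and C3, the central complement component, at 2238, 2269 and 2391 CPM in the HepG2 libraries and 17.2 and 18.6 CPM in the SK-Hep1 libraries. Both were readily counted in SK-Hep1, in replicates close to each other, and their differences were -6.21 ± 0.048 and -7.00 ± 0.059. TTR, the thyroid hormone carrier transthyretin, stood at 72.1, 79.1 and 74.99 CPM in HepG2 and had no count in SK-Hep1, which makes it at least 741-fold lower there. The same held for SERPINA7, which binds thyroxine, at 136, 137 and 129 CPM in HepG2 and at least 1317-fold lower. The acute-phase gene ORM1, whose reads may be shared with its near-identical neighbour ORM2, had 3 SK-Hep1 counts. Its count ratio, the higher line over the lower and scaled for depth, was 2374, interval 812 to 11512. Such intervals are 95% exact Poisson intervals and cover counting error only. FGG, the gamma chain of fibrinogen, had 5 SK-Hep1 counts and 556, 558 and 526 CPM in the HepG2 libraries (-11.58).

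Apolipoproteins, the shells of secreted lipoproteins, followed. Of 18 listed 15 were tested, and 15 of these were lower in SK-Hep1, 14 at least 4-fold, with a median of -9.29. APOB, the backbone of very-low-density lipoprotein, was the most counted gene of HepG2 at 20706, 23637 and 23105 CPM, and stood at 9.34 and 18.4 CPM in SK-Hep1 (-10.65 ± 0.21). APOA1 and APOA2, the proteins of high-density lipoprotein, differed by -10.56 and -10.46. Without SK-Hep1 replicate 2 these became -11.25 and -11.28. APOC2, the activator of lipoprotein lipase, stood at 144, 144 and 144 CPM in HepG2 and had 1 count in SK-Hep1. Its count ratio was 4244, interval 761 to 167663.

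The transcription factors that drive these genes in liver were low as well. All 22 listed were tested: 21 were lower in SK-Hep1, 18 by at least 4-fold, and the median was -5.82. HNF4A, a nuclear receptor at the centre of the network, stood at 269, 255 and 272 CPM in the HepG2 libraries and 0.141 and 0.263 CPM in the SK-Hep1 libraries (-10.29 ± 0.13, adjusted p = 2.34e-56). Its SK-Hep1 level was low in each replicate, and the groups did not overlap. FOXA1, a pioneer factor that opens liver enhancers, stood at 112, 103 and 107 CPM in the HepG2 libraries and 1.33 and 1.31 CPM in the SK-Hep1 libraries (-6.33 ± 0.12). CEBPA, which keeps hepatocytes differentiated, stood at 157, 149 and 159 CPM in the HepG2 libraries and 0.351 and 0.46 CPM in the SK-Hep1 libraries (-8.54 ± 0.14). In neither did a library of 1 line reach the range of the other. FOXA2 had 2 counts in SK-Hep1 against 47.7, 47.2 and 51.8 CPM in HepG2, a count ratio of 721, interval 199 to 5959. NR1H4, the bile acid receptor FXR, stood at 35.8, 37.2 and 33.5 CPM in HepG2 and had no SK-Hep1 count, and was at least 349-fold lower. CREB3L3, a membrane-bound factor of lipid metabolism, had none either (at least 105-fold lower). NR1I2, the drug-sensing receptor PXR, had 1 count, and its ratio was 858, interval 154 to 33934. The 1 factor not called was NR5A2, at mean CPM of 1.52 in HepG2 and 1.26 in SK-Hep1.

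Amino acid catabolism and the urea cycle were lower in most genes: of 20 listed 17 were tested, 16 lower and 1 higher, 12 at least 4-fold lower and none at least 4-fold higher, with a median of -4.72. HGD and TAT act in tyrosine breakdown and had no SK-Hep1 count. HGD stood at 140.3, 141 and 145 CPM in HepG2 (at least 1394-fold lower in SK-Hep1), and TAT at 7.73, 7.63 and 8.3 CPM (at least 77.5-fold lower). AGXT, which detoxifies glyoxylate, was at least 169.9-fold lower.

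CPS1, the entry enzyme of the urea cycle, was low in SK-Hep1 but readily counted, at 65.9, 68.7 and 67.3 CPM in the HepG2 libraries and 6.6 and 4.66 CPM in the SK-Hep1 libraries (-3.58 ± 0.10). ASS1, the next enzyme but one, stood at 71.9, 73.6 and 77.5 CPM in the HepG2 libraries and 1.9 and 0.854 CPM in the SK-Hep1 libraries, a difference of -5.76, or -6.43 without SK-Hep1 replicate 1. ARG1, the last enzyme, was low in both lines, at 0.875, 1.35 and 1.16 CPM in the HepG2 libraries and 0 and 0.0657 CPM in the SK-Hep1 libraries. The tested gene that was higher in SK-Hep1 was NAGS, which makes the activator of CPS1, at mean CPM of 7.43 in HepG2 and 13.7 in SK-Hep1.

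Of 30 drug and steroid metabolism genes 21 were tested, 19 lower in SK-Hep1 and 2 higher, 18 and 2 of them by at least 4-fold. The median was -7.69, or -5.35 with genes of no count at their limit. NQO1, a quinone reductase, stood at 1151, 1154 and 1126 CPM in the HepG2 libraries and 1.26 and 1.31 CPM in the SK-Hep1 libraries (-9.78 ± 0.081). AKR1C1, a reductase of steroids whose reads may be shared with close relatives, stood at 1112, 1007 and 1054 CPM in the HepG2 libraries and 1.05 and 1.71 CPM in the SK-Hep1 libraries (-9.56 ± 0.099). SULT2A1, the sulfotransferase of steroids, stood at 106, 104 and 107 CPM in HepG2 and had 2 SK-Hep1 counts (count ratio 1558, interval 431 to 12870.3). Among cytochromes, CYP27A1, which oxidises cholesterol side chains, stood at 212, 192 and 211 CPM in the HepG2 libraries and 1.48 and 2.69 CPM in the SK-Hep1 libraries (-6.60 ± 0.10). CYP3A5 was low in both lines at 2.12, 1.59 and 2.48 CPM in the HepG2 libraries and 1.12 and 0.591 CPM in the SK-Hep1 libraries (-1.28 ± 0.33), and CYP3A4 and CYP7A1 did not pass the filter on low counts. The 2 genes higher in SK-Hep1 were CYP2E1 and SLCO1B1, at 1.77 and 1.29 CPM there.

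Sterol and fatty acid synthesis, which growing cells of any type need, stood much closer. All 22 listed were tested: 15 were lower in SK-Hep1, 4 higher and 3 not called, 2 and 1 by at least 4-fold, with a median of -0.46. MVD, an enzyme of the mevalonate pathway, stood at 93.0, 89.5 and 98.9 CPM in the HepG2 libraries and 13.2 and 11.4 CPM in the SK-Hep1 libraries (-2.93 ± 0.086). SCD, the stearoyl-CoA desaturase, stood at 1299, 1307 and 1292 CPM in the HepG2 libraries and 384 and 267 CPM in the SK-Hep1 libraries (-1.999 ± 0.15), with SK-Hep1 replicate 1 above replicate 2 but both far below HepG2. INSIG1, the membrane protein that holds back sterol-regulated transcription, went the other way. It had no count in any HepG2 library and stood at 158 and 126 CPM in SK-Hep1, which makes it at least 1897-fold higher. Whether reads were assigned to this symbol in the same way in each line was not tested.

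**Figure D3:**
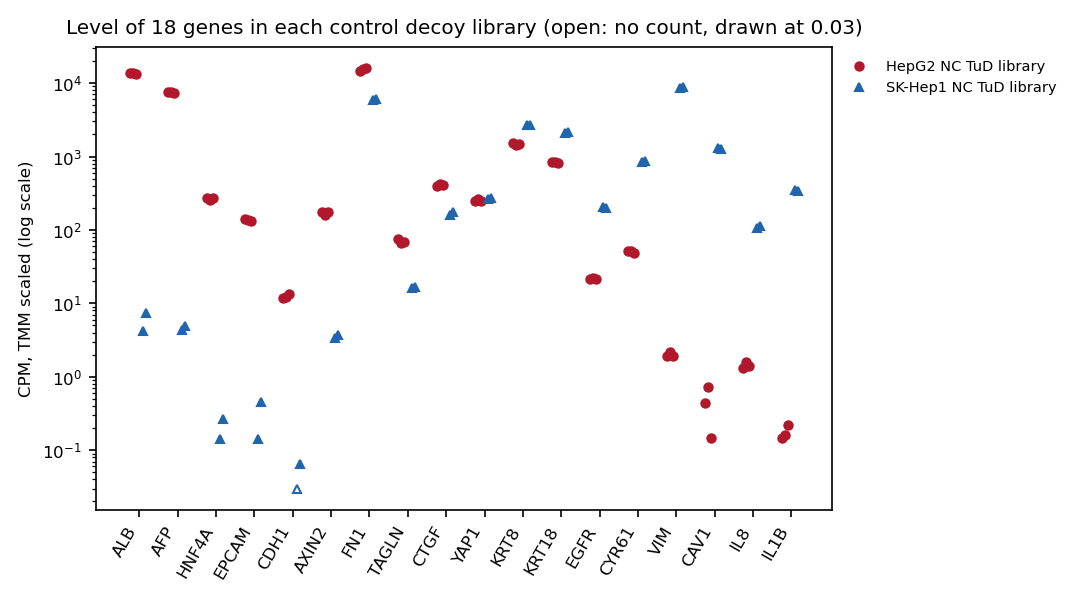
CPM of 18 genes in each control decoy library (log axis; HepG2 circles, SK-Hep1 triangles; open symbols mark no count). Hepatocyte genes such as ALB and HNF4A are high in every HepG2 library, VIM and CAV1 in both SK-Hep1 libraries, and the libraries of a line sit close together.

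Epithelial genes were mostly lower in SK-Hep1, but the 4 keratins listed were higher. Of 35 listed 31 were tested, 23 lower and 6 higher, 21 and 2 by at least 4-fold, with a median of -5.13 (-3.76 with genes of no count at their limit). CDH1, the adhesion molecule E-cadherin, stood at 11.96, 12.3 and 13.6 CPM in HepG2 and had 1 count in SK-Hep1 (count ratio 373, interval 66.6 to 14742). EPCAM, an epithelial surface protein, stood at 139, 135 and 134 CPM in the HepG2 libraries and 0.141 and 0.46 CPM in the SK-Hep1 libraries, a difference of -8.76, or -9.83 without SK-Hep1 replicate 2. CRB3 and MARVELD2, which act in cell polarity and in tight junctions, had no SK-Hep1 count and were at least 134-fold and 144-fold lower. MAL2, which sorts apical cargo, had 3 (count ratio 1229, interval 420.4 to 5962).

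The 6 genes higher in SK-Hep1 were KRT7, KRT8, KRT18, KRT19 and the junction genes CLDN7 and CGN. CLDN7, a claudin, stood at 24.9 and 23.5 CPM with 1 HepG2 count (count ratio 967, interval 173 to 38253). The filament proteins KRT8 and KRT18, the keratin pair of simple epithelia, were both higher in SK-Hep1. KRT8 stood at 1525, 1448 and 1504 CPM in the HepG2 libraries and 2649 and 2728 CPM in the SK-Hep1 libraries (0.85 ± 0.035) and KRT18 at 833, 835 and 825 CPM in the HepG2 libraries and 2079.9 and 2134 CPM in the SK-Hep1 libraries (1.34 ± 0.036). KRT7, a keratin of ducts that hepatocytes lack, stood at 0.584, 0.0795 and 0.291 CPM in the HepG2 libraries and 242 and 235 CPM in the SK-Hep1 libraries. Its difference was 9.48, or 10.23 without HepG2 replicate 1. Thus SK-Hep1 kept keratin transcripts at levels above those of HepG2 while its transcripts of E-cadherin were at the limit of detection.

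Of 25 mesenchymal genes 20 were tested, 14 higher in SK-Hep1 and 6 lower, 13 and 3 by at least 4-fold, with a median of 4.65. VIM, the filament protein vimentin, was the most counted gene of SK-Hep1 at 8696 and 8948 CPM, against 1.9, 2.15 and 1.89 CPM in HepG2 (12.12 ± 0.099, adjusted p = 1.36e-27). SPARC, a secreted collagen-binding protein, stood at 44.1, 49.0 and 47.7 CPM in the HepG2 libraries and 2524 and 2428 CPM in the SK-Hep1 libraries (5.72 ± 0.044). AXL, a receptor kinase common in mesenchymal tumour cells, stood at 23.6, 29.2 and 28.2 CPM in the HepG2 libraries and 819 and 832 CPM in the SK-Hep1 libraries (4.94 ± 0.053). In each, both SK-Hep1 libraries lay many times above every HepG2 library. SNAI2, the repressor Slug, stood at 30.8 and 29.8 CPM in SK-Hep1 with 1 HepG2 count (count ratio 1213, interval 217 to 47964). THY1, a fibroblast surface protein, also had 1 HepG2 count (count ratio 1559, interval 279 to 61645). TNC and POSTN, matrix proteins of wound tissue, had none and were at least 123-fold and 133-fold higher.

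Other genes of the same list did not follow. ZEB1, a repressor of E-cadherin, was present in both lines at 24.4, 26.4 and 26.1 CPM in the HepG2 libraries and 59.4 and 57.5 CPM in the SK-Hep1 libraries (1.19 ± 0.074). CDH2, N-cadherin, was nearly equal at 94.7, 99.6 and 101 CPM in the HepG2 libraries and 84.3 and 84.4 CPM in the SK-Hep1 libraries (-0.22 ± 0.053), a difference that was called though small. FN1, fibronectin, was lower in SK-Hep1 at 14722, 15619 and 16052 CPM in the HepG2 libraries and 5926 and 6022 CPM in the SK-Hep1 libraries (-1.37 ± 0.036), though it ranked among the most counted genes of both lines. The 3 at least 4-fold lower in SK-Hep1 were SNAI1, S100A4 and MMP2, at mean CPM of 5.56, 3.27 and 2.46 in HepG2 and 0.0351, 0.338 and 0.0351 in SK-Hep1.

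**Figure D4:**
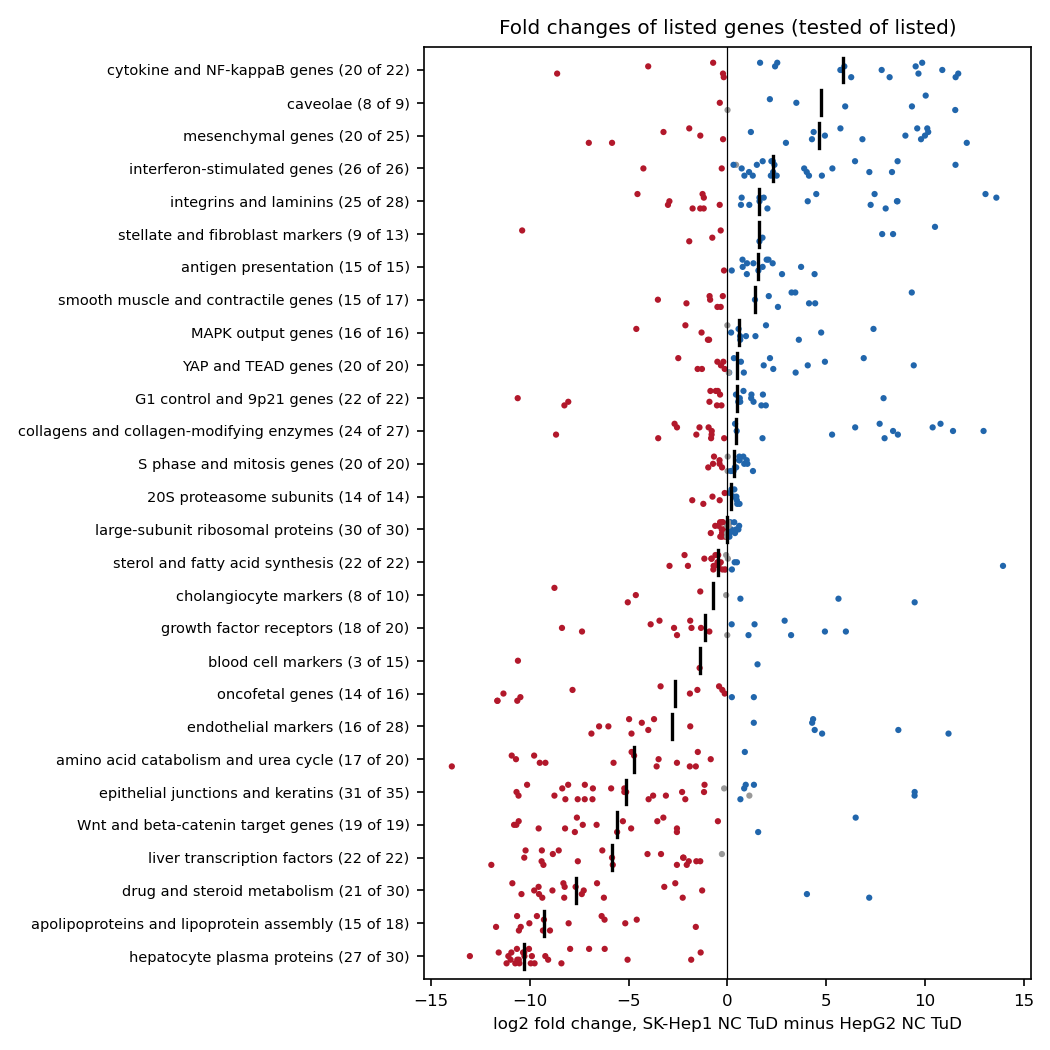
Log2 fold change of each tested gene (points, SK-Hep1 less HepG2, control decoy libraries) by gene group, with the number tested of those listed; blue points were called higher in SK-Hep1, red lower and grey neither, short bars mark medians and the long line marks 0. Plasma protein genes gather around -10, caveolae and cytokine genes lie mostly to the right of 0, and ribosomal protein genes cluster at 0.

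Collagens and the enzymes that process them were mixed: of 27 listed 24 were tested, 13 higher and 11 lower, 10 and 4 by at least 4-fold, with a median of 0.43. COL13A1, a transmembrane collagen, stood at 70.2 and 73.4 CPM in SK-Hep1 with no HepG2 count, and was at least 958-fold higher. COL4A1, of basement membranes, stood at 80.3 and 78.0 CPM with 2 HepG2 counts (count ratio 1583, interval 438 to 13080.3). COL6A3 stood at 136 and 161 CPM with 3 (count ratio 1986, interval 679 to 9634). LEPREL1, a prolyl hydroxylase of collagen, had no HepG2 count (at least 328-fold higher). COL1A1, the main fibril collagen of scars, stood at only 8.1, 8.91 and 9.1 CPM in the HepG2 libraries and 30.6 and 29.0 CPM in the SK-Hep1 libraries (1.78 ± 0.10). The 4 at least 4-fold lower in SK-Hep1 were COL2A1, COL16A1, COL18A1 and COL27A1.

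Integrins, the receptors for matrix, and laminins, which line epithelia, were higher in 16 and lower in 9 of 25 tested (28 listed), 10 and 3 by at least 4-fold, with a median of 1.62. ITGA3, an integrin chain that binds laminin, stood at 2.92, 3.9 and 2.26 CPM in the HepG2 libraries and 1146 and 1206 CPM in the SK-Hep1 libraries (8.61 ± 0.069). LAMB3, a chain of a laminin that ITGA3 binds, stood at 0.511, 0.636 and 0.946 CPM in the HepG2 libraries and 259.9 and 284 CPM in the SK-Hep1 libraries (8.58 ± 0.11). ITGA4 had no HepG2 count and was at least 1501-fold higher in SK-Hep1, at 115 and 110.4 CPM. The 3 at least 4-fold lower were ITGA7, ITGA9 and LAMA5.

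Caveolae are small coated pits built from caveolins and cavins. Of 9 listed genes 8 were tested, 6 higher in SK-Hep1 and 1 lower, 6 and 0 by at least 4-fold, with a median of 4.73. CAV1, the main caveolin, stood at 0.438, 0.716 and 0.146 CPM in the HepG2 libraries and 1299 and 1277 CPM in the SK-Hep1 libraries (11.54 ± 0.088, adjusted p = 1.23e-67). PTRF, the coat protein cavin-1, stood at 146, 132 and 138 CPM in the HepG2 libraries and 1536 and 1584 CPM in the SK-Hep1 libraries (3.49 ± 0.041), and its partner SDPR (cavin-2) at 90.7, 94.5 and 93.9 CPM in the HepG2 libraries and 412 and 414 CPM in the SK-Hep1 libraries (2.15 ± 0.043). HepG2 thus held PTRF and SDPR transcripts at 90.7 CPM or more while its caveolin transcripts were below 1 CPM. PRKCDBP (cavin-3) had 3 HepG2 counts (count ratio 1178, interval 403 to 5717), and EHD2, which anchors caveolae, stood at 1.68, 1.27 and 1.82 CPM in the HepG2 libraries and 98.8 and 102 CPM in the SK-Hep1 libraries (5.96 ± 0.11).

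Genes of YAP and TEAD signalling, which answers to cell spreading, did not move as a block. All 20 listed were tested, 12 higher and 7 lower in SK-Hep1, 7 and 1 by at least 4-fold, with a median of 0.51. The coactivator YAP1 stood at 249.1, 264 and 244 CPM in the HepG2 libraries and 264 and 273 CPM in the SK-Hep1 libraries (0.09 ± 0.042, adjusted p = 0.0434). This small difference was not called in 8 of its alternative settings, where adjusted p ranged from 0.0508 to 0.261. CYR61 and CTGF, members of 1 matricellular family and well-known targets of YAP, went opposite ways. CYR61 stood at 52.2, 52.1 and 49.1 CPM in the HepG2 libraries and 844 and 871 CPM in the SK-Hep1 libraries (4.07 ± 0.045). CTGF, with its 3 TEAD matches shown above, stood at 403, 416 and 416 CPM in the HepG2 libraries and 161 and 176 CPM in the SK-Hep1 libraries (-1.29 ± 0.045). AMOTL1, a YAP-binding protein, stood at 0.584, 0.636 and 0.655 CPM in the HepG2 libraries and 73.4 and 78.1 CPM in the SK-Hep1 libraries (6.90 ± 0.13). TGFB2, a TGF-beta ligand, stood at 0, 0.159 and 0.218 CPM in the HepG2 libraries and 95.7 and 89.6 CPM in the SK-Hep1 libraries, a difference of 9.43, or 10.09 without HepG2 replicate 3. The receptor TGFBR2 was lower in SK-Hep1 at 336, 357 and 341 CPM in the HepG2 libraries and 129 and 134 CPM in the SK-Hep1 libraries (-1.39 ± 0.044).

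Of 22 cytokine and NF-kappaB genes 20 were tested, 15 higher in SK-Hep1 and 5 lower, 14 and 2 by at least 4-fold, with a median of 5.85 (5.43 with genes of no count at their limit). IL8 stood at 1.31, 1.59 and 1.38 CPM in the HepG2 libraries and 106 and 114 CPM in the SK-Hep1 libraries (6.27 ± 0.11, adjusted p = 2.53e-50). Its window above was searched for AP-1 but not for NF-kappaB motifs, and which factor drives it was not tested. IL1B, the inflammasome cytokine, stood at 0.146, 0.159 and 0.218 CPM in the HepG2 libraries and 354 and 339 CPM in the SK-Hep1 libraries (10.88 ± 0.11). Both SK-Hep1 libraries lay far above every HepG2 library for these. IL6 had no count in HepG2 and stood at 27.6 and 26.3 CPM in SK-Hep1 (at least 359-fold higher). CXCL6 had none either (at least 111-fold higher), and CXCL1 had 2 against 190.4 and 198 CPM (count ratio 3891, interval 1077 to 32137). The 2 at least 4-fold lower in SK-Hep1 were IL11 and CCL20, at mean CPM of 12.2 in HepG2 and 0.75 in SK-Hep1, and 83.7 in HepG2 and 0.204 in SK-Hep1, in that order. FOSL1, an AP-1 subunit, stood at 22.4, 19.8 and 23.1 CPM in the HepG2 libraries and 578 and 594 CPM in the SK-Hep1 libraries (4.75 ± 0.053).

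Interferon-stimulated genes were higher in SK-Hep1 in 23 and lower in 2 of 26 tested (26 listed), 16 and 1 by at least 4-fold, with a median of 2.31. IFI44 stood at 27.0 and 26.7 CPM in SK-Hep1 with no HepG2 count (at least 358-fold higher). OAS2, a sensor that activates RNA decay, stood at 0.219, 0.239 and 0 CPM in the HepG2 libraries and 64.2 and 60.5 CPM in the SK-Hep1 libraries (8.62 ± 0.19). IFIT2, which blocks translation of foreign RNA, stood at 0.146, 0 and 0.146 CPM in the HepG2 libraries and 36.5 and 33.8 CPM in the SK-Hep1 libraries (8.33 ± 0.23). OASL had 3 HepG2 counts (count ratio 163, interval 55.3 to 794). The gene at least 4-fold lower was MX2, at mean CPM of 41.7 in HepG2 and 2.15 in SK-Hep1.

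Antigen presentation moved the same way by smaller amounts: 14 of 15 tested (15 listed) were higher in SK-Hep1 and 1 lower, 5 and 0 by at least 4-fold, with a median of 1.57. B2M, the light chain of class I molecules, stood at 279, 287 and 267 CPM in the HepG2 libraries and 547 and 549.6 CPM in the SK-Hep1 libraries (0.98 ± 0.039). PSMB9, an interferon-inducible proteasome subunit, stood at 2.7, 2.7 and 2.48 CPM in the HepG2 libraries and 57.6 and 54.6 CPM in the SK-Hep1 libraries (4.41 ± 0.11). HLA-B stood at 29.4, 26.6 and 27.6 CPM in the HepG2 libraries and 369 and 372 CPM in the SK-Hep1 libraries (3.73 ± 0.052) and HLA-F at 2.92, 3.1 and 3.2 CPM in the HepG2 libraries and 21.4 and 20.5 CPM in the SK-Hep1 libraries (2.77 ± 0.14). Class I genes are near-identical in stretches and highly polymorphic, so how their reads were split is uncertain. ERAP2, which trims peptides, stood at 28.6, 29.9 and 26.0 CPM in the HepG2 libraries and 138 and 137 CPM in the SK-Hep1 libraries (2.29 ± 0.061). HLA-DRA, a class II chain normally of antigen-presenting cells, stood at 89.8 and 90.4 CPM in SK-Hep1 and had no HepG2 count (at least 1202-fold higher).

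Targets of Wnt and beta-catenin were lower in SK-Hep1 in 17 and higher in 2 of 19 tested (19 listed), 16 and 1 by at least 4-fold, with a median of -5.58 (-5.29 with genes of no count at their limit). HepG2 is known to carry a shortened, stabilised beta-catenin. AXIN2, a feedback scaffold, stood at 174, 162 and 178 CPM in the HepG2 libraries and 3.37 and 3.74 CPM in the SK-Hep1 libraries (-5.58 ± 0.092). LGR5, the R-spondin receptor, stood at 160.4, 172 and 162 CPM in the HepG2 libraries and 0.281 and 0.788 CPM in the SK-Hep1 libraries, a difference of -8.22, or -9.15 without SK-Hep1 replicate 2. NKD1, another feedback inhibitor, differed by -10.80, or -11.87 without that replicate. NOTUM, a secreted enzyme that inactivates Wnt, differed by -9.56, or -8.82 and -11.34 without SK-Hep1 replicate 1 or 2. RNF43, a ligase that removes Wnt receptors, stood at 167, 168 and 169.6 CPM in HepG2 with 3 SK-Hep1 counts (count ratio 1652, interval 565 to 8012). The 2 genes higher in SK-Hep1 were LEF1 and DKK1, at mean CPM of 0.177 in HepG2 and 16.6 in SK-Hep1, and 311 in HepG2 and 917 in SK-Hep1, in that order.

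Oncofetal genes, active in fetal liver and again in liver tumours, were lower in 12 and higher in 2 of 14 tested (16 listed, 15 in the files), 7 and 0 by at least 4-fold, with a median of -2.64. GPC3, a proteoglycan used as a liver tumour marker, stood at 2493, 2469 and 2497 CPM in the HepG2 libraries and 0.773 and 2.63 CPM in the SK-Hep1 libraries. Its difference was -10.48, or -9.88 and -11.63 without SK-Hep1 replicate 1 or 2. DLK1, a fetal Notch-like ligand, had 3 SK-Hep1 counts against 293, 266 and 302 CPM in HepG2 (count ratio 2823, interval 966 to 13692), and LIN28B, which blocks let-7 maturation, had 1 (count ratio 4026, interval 722 to 159056). IGF2 stood at 1863, 1836 and 2054 CPM in the HepG2 libraries and 8.15 and 8.54 CPM in the SK-Hep1 libraries (-7.84 ± 0.076). PEG3 stood at 987, 1041 and 1006 CPM in the HepG2 libraries and 0.281 and 0.328 CPM in the SK-Hep1 libraries (-11.65 ± 0.10), while PEG10 kept a substantial level in SK-Hep1 at 2639.8, 2803 and 2814 CPM in the HepG2 libraries and 255 and 272 CPM in the SK-Hep1 libraries (-3.38 ± 0.043).

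Other oncofetal genes were shared. IGF2BP1, which binds and protects mRNAs, stood at 528, 542 and 542 CPM in the HepG2 libraries and 139.7 and 148 CPM in the SK-Hep1 libraries (-1.90 ± 0.043). HMGA2, a chromatin protein and let-7 target, was nearly equal at 402, 413 and 386 CPM in the HepG2 libraries and 348 and 380.1 CPM in the SK-Hep1 libraries (-0.14 ± 0.042, adjusted p = 0.00261). The HMGA2 difference was not called with upper-quartile scaling (adjusted p = 0.123), without scaling (0.0654) or without SK-Hep1 replicate 1 (0.175). The 2 genes higher in SK-Hep1 were MEST and HMGA1.

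Growth factor receptors were mixed: 7 of 18 tested (20 listed) were higher in SK-Hep1 and 10 lower, 4 and 6 by at least 4-fold, with a median of -1.13. EGFR stood at 21.3, 22.3 and 21.2 CPM in the HepG2 libraries and 205 and 198 CPM in the SK-Hep1 libraries (3.22 ± 0.061). FGFR4, the liver receptor for bile acid feedback through FGF19, stood at 375, 362 and 410.3 CPM in the HepG2 libraries and 23.1 and 28.5 CPM in the SK-Hep1 libraries (-3.89 ± 0.068), and FGFR3 at 399.9, 372 and 420.4 CPM in the HepG2 libraries and 0.843 and 1.51 CPM in the SK-Hep1 libraries (-8.38 ± 0.11). FGFR2 had 1 SK-Hep1 count (count ratio 208, interval 37.0 to 8229). EPHB2, an ephrin receptor, stood at 0.146, 0 and 0.146 CPM in the HepG2 libraries and 5.97 and 7.88 CPM in the SK-Hep1 libraries (5.998 ± 0.37). HepG2 libraries were thus the higher in FGFR3 and FGFR4 and those of SK-Hep1 in EGFR and AXL.

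Outputs of MAPK signalling were higher in 10 and lower in 5 of 16 tested (16 listed), 3 and 2 by at least 4-fold, with a median of 0.60. For so few genes, the 4-fold counts are close to the 13.6% in each direction over all genes tested. ETV1 stood at 0.292, 0.0795 and 0.146 CPM in the HepG2 libraries and 31.7 and 30.3 CPM in the SK-Hep1 libraries (7.40 ± 0.22), and DUSP4, a phosphatase induced by ERK, at 1.17, 1.59 and 1.67 CPM in the HepG2 libraries and 17.2 and 19.1 CPM in the SK-Hep1 libraries (3.62 ± 0.16). SPRY1, a feedback inhibitor, was lower in SK-Hep1 at 53.9, 48.8 and 47.2 CPM in the HepG2 libraries and 2.32 and 1.77 CPM in the SK-Hep1 libraries (-4.61 ± 0.13). Within the list, then, feedback genes stood on both sides.

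Cell cycle genes were mostly called, as were most genes tested, but differed by small amounts. Of 22 G1 control genes, 22 were tested, 12 higher and 10 lower, 1 and 3 by at least 4-fold, with a median of 0.49. The 3 lower were the neighbours CDKN2A, CDKN2B and MTAP on chromosome 9. CDKN2A, which encodes the inhibitors p16 and ARF, stood at 2.7, 2.46 and 2.98 CPM in HepG2 with no SK-Hep1 count (at least 26.7-fold lower). CDKN2B, the related inhibitor p15, stood at 2.04, 3.26 and 1.89 CPM with none (at least 23.6-fold lower). MTAP, a methionine salvage enzyme, stood at 66.0, 70.8 and 65.5 CPM with 1 count (count ratio 1983, interval 356 to 78365).

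CDKN1A, the p53-induced inhibitor p21, stood at 161, 161 and 166 CPM in the HepG2 libraries and 539.7 and 533 CPM in the SK-Hep1 libraries (1.72 ± 0.041). CCND1, cyclin D1, stood at 489.8, 488 and 479 CPM in the HepG2 libraries and 741 and 782 CPM in the SK-Hep1 libraries (0.65 ± 0.037), and its kinase partner CDK6 at 232, 251 and 249.1 CPM in the HepG2 libraries and 185 and 192 CPM in the SK-Hep1 libraries (-0.37 ± 0.046). CCNE2 and CCND3 were higher in SK-Hep1 by 1.94 ± 0.095 and 1.80 ± 0.07. Of 20 S phase and mitosis genes, 20 were tested, 12 higher and 6 lower, none by 4-fold, with a median of 0.34. MKI67, a marker of cycling cells, stood at 319, 349 and 331 CPM in the HepG2 libraries and 803 and 830.4 CPM in the SK-Hep1 libraries (1.29 ± 0.038), whereas PLK1, a mitotic kinase, was lower at 246, 237 and 251 CPM in the HepG2 libraries and 125 and 125 CPM in the SK-Hep1 libraries (-0.97 ± 0.047). MCM6 and AURKB were higher by 1.01 ± 0.051 and 0.98 ± 0.055.

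Housekeeping complexes gave the scale of small differences. Of 30 large-subunit ribosomal protein genes tested (30 listed), 9 were higher, 14 lower and 7 not called, none by 4-fold. Their median of -0.02 became 0.0489 with upper-quartile scaling and 0.0376 without scaling, so the group has no direction that holds. RPL9 stood at 521, 524 and 500.5 CPM in the HepG2 libraries and 289 and 286 CPM in the SK-Hep1 libraries (-0.84 ± 0.04) and RPL6 at 884, 890.0 and 829 CPM in the HepG2 libraries and 1319 and 1302 CPM in the SK-Hep1 libraries (0.60 ± 0.036). Of 14 subunits of the 20S proteasome, 14 were tested, 8 higher and 5 lower, none by 4-fold, with a median of 0.18. The catalytic subunit PSMB5 was lower in SK-Hep1 at 515, 517 and 525 CPM in the HepG2 libraries and 149 and 154 CPM in the SK-Hep1 libraries (-1.78 ± 0.043), as were PSMA6 (-1.22 ± 0.044) and PSMB1 (-0.76 ± 0.047), while PSMB4 was higher (0.61 ± 0.042). Subunits of 1 kind of particle thus differed in opposite directions at the transcript level.

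The labelled identity of the lines was checked against markers of other cell types. Of 28 endothelial markers 16 were tested, 7 higher and 9 lower in SK-Hep1, 6 and 8 by at least 4-fold, with a median of -2.80 (-2.19 with genes of no count at their limit). Their summed level was 175 to 184 CPM in SK-Hep1 and 76.7 to 82.9 CPM in HepG2, and 11 of 28 had no count in SK-Hep1 (8 of 28 in HepG2). Markers stood on both sides. PECAM1 had no SK-Hep1 count, against 1.17, 1.03 and 0.946 CPM in HepG2. The VEGF receptor KDR had no count in either line, CDH5 (VE-cadherin) had 2 SK-Hep1 counts and VWF had 2. ERG, the endothelial factor of the ETS family, also had no count in either line. Others were higher in SK-Hep1. THBD (thrombomodulin) stood at 18.8 and 23.05 CPM with no HepG2 count (at least 279-fold higher), and CD34, a surface marker of vessels and blood progenitors, at 4.15 and 3.09 CPM with none (at least 48.2-fold higher). ROBO4, a guidance receptor of endothelium, stood at 1.02, 1.51 and 1.02 CPM in the HepG2 libraries and 24.7 and 25.9 CPM in the SK-Hep1 libraries (4.42 ± 0.16). ENG, the TGF-beta co-receptor endoglin, stood at 2.85, 3.42 and 4.004 CPM in the HepG2 libraries and 64.3 and 70.0 CPM in the SK-Hep1 libraries (4.29 ± 0.11), and EGFL7 at 0.292, 0.477 and 0.582 CPM in the HepG2 libraries and 12.4 and 13.1 CPM in the SK-Hep1 libraries (4.79 ± 0.23). ESAM was lower at 17.9, 20.3 and 20.4 CPM in the HepG2 libraries and 0.773 and 0.46 CPM in the SK-Hep1 libraries (-4.98 ± 0.20). ICAM2 differed by -4.86, or -4.19 and -6.28 without SK-Hep1 replicate 1 or 2. NOS3, the endothelial nitric oxide synthase, was 20.2-fold lower in SK-Hep1, SOX18 13.1-fold and TIE1 3.68-fold. CLDN5 and LYVE1, below 1 CPM in each HepG2 library, had no SK-Hep1 count.

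Smooth muscle and contractile genes were higher in 8 and lower in 7 of 15 tested (17 listed), 7 and 2 by at least 4-fold, with a median of 1.40 and summed levels of 3178 to 3276 CPM in SK-Hep1 and 1323 to 1336 CPM in HepG2. TPM2, a tropomyosin, stood at 13.1, 12.5 and 11.9 CPM in the HepG2 libraries and 258 and 286 CPM in the SK-Hep1 libraries (4.44 ± 0.065), and MYL9, a myosin light chain, at 10.1, 9.06 and 8.59 CPM in the HepG2 libraries and 100.4 and 101 CPM in the SK-Hep1 libraries (3.44 ± 0.078). MYOCD, the defining coactivator of smooth muscle, stood at 6.32 and 5.25 CPM in SK-Hep1 with no HepG2 count (at least 77.2-fold higher). TAGLN, an early smooth muscle marker, was lower at 75.1, 66.5 and 68.8 CPM in the HepG2 libraries and 16.4 and 16.9 CPM in the SK-Hep1 libraries (-2.07 ± 0.08). Other smooth muscle markers of the list were lower in SK-Hep1 too. CNN1 stood at 1.17, 1.99 and 1.82 CPM in the HepG2 libraries and 0.0703 and 0.197 CPM in the SK-Hep1 libraries. ACTA2, MYH11 and CALD1 were 1.27-fold, 1.87-fold and 1.83-fold lower.

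Of 13 stellate and fibroblast markers 9 were tested, 5 higher and 4 lower, 3 and 1 by at least 4-fold, with a median of 1.62. The list's sum was 111 to 115 CPM in SK-Hep1 and 1410 to 1558 CPM in HepG2, where RELN alone stood at 1332, 1469 and 1475 CPM. RELN, an extracellular glycoprotein, differed by -10.39, or -11.28 without SK-Hep1 replicate 2. LUM and COL3A1, matrix genes of fibroblasts, were higher in SK-Hep1 at 15.0 and 11.2 CPM (at least 175-fold) and 20.2 and 19.3 CPM (count ratio 395, interval 109 to 3266). LRAT was also higher, at 2.46 and 1.64 CPM in SK-Hep1 with no HepG2 count (at least 27.4-fold), and RGS5 was 3.08-fold higher. PDGFRB, a receptor of stellate cells and pericytes, was lower at 21.9, 19.2 and 24.1 CPM in the HepG2 libraries and 6.18 and 5.25 CPM in the SK-Hep1 libraries (-1.93 ± 0.13).

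Of 10 cholangiocyte markers 8 were tested, 3 higher and 4 lower, 2 and 3 by at least 4-fold, with a median of -0.72 and sums of 982 to 1007 CPM in SK-Hep1 and 1979 to 2055 CPM in HepG2. SPP1, osteopontin, stood at 1301, 1287 and 1229 CPM in the HepG2 libraries and 39.9 and 37.2 CPM in the SK-Hep1 libraries (-5.04 ± 0.052). Of 15 blood cell markers 3 were tested, 1 higher and 2 lower, 0 and 1 by at least 4-fold, with a median of -1.41. Their sum was 2569 to 2650 CPM in HepG2, nearly all of it LYZ (lysozyme), and 152 CPM in SK-Hep1, nearly all of it CD68. LYZ differed by -10.61, or -11.43 without SK-Hep1 replicate 2. The leukocyte marker PTPRC had no count in HepG2 and 2 in SK-Hep1, and 8 and 10 of the 15 had no count in HepG2 and SK-Hep1. The part of other cell types in the line difference was not tested beyond these levels. In bulk RNA, fewer cells of a type and less RNA per cell cannot be told apart.

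Several of the largest differences lay outside the lists. In SK-Hep1, THBS1, an adhesive protein of platelets and wound matrix, stood at 329, 339.7 and 339 CPM in the HepG2 libraries and 6468 and 6709.8 CPM in the SK-Hep1 libraries (4.29 ± 0.036). TGM2, a crosslinking enzyme, stood at 93.5, 97.0 and 102 CPM in the HepG2 libraries and 3127 and 3229.9 CPM in the SK-Hep1 libraries (5.03 ± 0.041), and CD44, the hyaluronan receptor, at 0.292, 0.557 and 0.291 CPM in the HepG2 libraries and 1497 and 1534 CPM in the SK-Hep1 libraries (11.95 ± 0.087). Genes of SK-Hep1 with no HepG2 count included KCNMA1, a potassium channel, at 167 and 160.1 CPM, LY6K at 195 and 203 CPM and SLC18A3, the vesicular acetylcholine transporter, at 104 and 112 CPM. They were at least 2180.3-fold, 2656-fold and 1439.9-fold higher. ATL3 and SRI, which most cells express, had none either, at 91.7 and 90.0 CPM and 107 and 105 CPM in SK-Hep1 (at least 1212-fold and 1409-fold higher). For these, a count of 0 may also reflect how reads were assigned to the symbol, which was not tested.

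In the other direction, HPN, a surface protease of hepatocytes, stood at 67.6, 62.2 and 74.2 CPM in HepG2 with no SK-Hep1 count (at least 668-fold lower in SK-Hep1). HEPACAM, SLC13A3, SMLR1 and VSNL1 had none either and were at least 743-fold, 820.4-fold, 707-fold and 791-fold lower. ASGR2, a chain of the hepatocyte asialoglycoprotein receptor, stood at 335, 321 and 322 CPM in HepG2 with 3 SK-Hep1 counts (count ratio 3202, interval 1095 to 15529.7). BPIFB2 had 2 against 301, 295 and 316 CPM in HepG2 (count ratio 4482, interval 1241 to 37016). GSTP1, a glutathione transferase, stood at 178 and 178 CPM in SK-Hep1 with 3 HepG2 counts (count ratio 2374, interval 812 to 11517). CD81, a tetraspanin, stood at 162 and 169 CPM with 3 (count ratio 2208, interval 755 to 10709).

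Genes of this kind were counted over the whole table. With at most 3 counts summed over the libraries of 1 line and at least 10 CPM in the other, 285 genes were near 0 in HepG2 (144 with no count) and 239 in SK-Hep1 (80 with no count). Some lay side by side on the chromosome, in runs defined after the data were seen. Genes under 1 CPM in both lines and symbols with no RefSeq match were passed over, so neighbours need not be adjacent. At 1 CPM or more in the expressing line, 70 of 663 genes near 0 in HepG2 fell into 19 runs of at least 3 neighbours in the RefSeq order, and 83 of 591 near 0 in SK-Hep1 fell into 17. On chromosome 17, SKAP1, HOXB2 to HOXB9 and HOXB13 made a run of 10, near 0 in HepG2 and at 1.30 to 51.7 CPM in SK-Hep1. HOXB genes set position along the body axis. The neighbour SNX11 was present in both lines at 21.2 CPM in HepG2 and 34.8 CPM in SK-Hep1. On chromosome 6, HLA-DRA, HLA-DRB5 and HLA-DRB1 stood at 90.1, 31.2 and 138 CPM in SK-Hep1, with reads of the DRB pair hard to assign.

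In SK-Hep1, a run of 16 zinc finger genes on chromosome 19 was near 0, at 2.35 to 23.6 CPM in HepG2. The genes on either side were present in both lines: ZNF480 at 17.7 CPM in HepG2 and 32.6 CPM in SK-Hep1, and ZNF331 at 19.95 and 10.3 CPM. On chromosome 13, 9 neighbours from MPHOSPH8 to XPO4 stood at 3.39 to 98.6 CPM in HepG2, and the next gene, the Hippo kinase LATS2, at 40.3 CPM in HepG2 and 34.9 CPM in SK-Hep1. On chromosome 9 the run was MTAP, CDKN2A and CDKN2B, beside KLHL9 at 44.5 CPM in HepG2 and 60.7 CPM in SK-Hep1. DNA copy number was not analysed here, and the cause of these runs was not tested.

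Whole chromosomes differed by smaller amounts. Over 8072 genes at 10 CPM or more in both lines the median log2 difference was 0.02. It was -0.77 on chromosome 20 and -0.68 on chromosome 16, and 0.66 on chromosome 12 and 0.64 on the X chromosome. Of the genes tested, 74.6% were lower in SK-Hep1 on chromosome 20 and 73.8% on chromosome 16, while 69.5% were higher on chromosome 12 and 69.0% on X. The backgrounds were 42.8% lower and 43.9% higher. In the miR-17 TuD libraries, which share no sample with these, the medians were -0.73 on chromosome 20, -0.74 on 16, 0.69 on 12 and 0.68 on X.

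**Figure D5:**
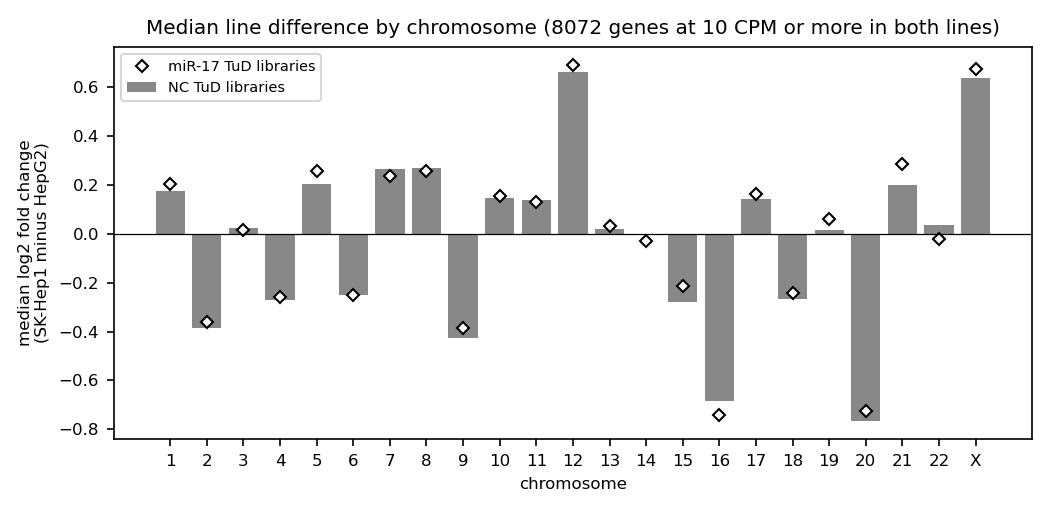
Median log2 fold change by chromosome (SK-Hep1 minus HepG2) over genes at 10 CPM or more in both lines, bars for NC TuD libraries and diamonds for miR-17 TuD libraries. Chromosomes 16 and 20 lie below 0 and chromosomes 12 and X above 0 in both arms.

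The comparison was repeated between the lines with the miR-17 decoy (n = 3 and 2), where 11653 genes (87.3%) were called, 5893 higher and 5760 lower in SK-Hep1. In all, 11004 genes were called in the same direction in both arms and 18 in opposite directions. Of the genes at least 4-fold higher in SK-Hep1 with the control decoy, 1816 of 1822 were called higher with the miR-17 decoy. Of those at least 4-fold lower, 1806 of 1809 were called lower. The test of the difference between the arms' line differences called 500 genes, 158 of them at least 4-fold apart in the control libraries. This count fell to 310 without HepG2 NC TuD replicate 1, to 329 without SK-Hep1 NC TuD replicate 1 and to 289 without SK-Hep1 NC TuD replicate 2. It was 324 with a replicate block and 239 with limma on the deposited log2 matrix. HNF4A differed between the lines by -11.88 with the miR-17 decoy, VIM by 12.43 and CAV1 by 12.47.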

How the data were processed

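Poly(A) RNA libraries (150 ng of RNA, a kit that records no strand, 50 bp read pairs) were counted per gene by the authors, who deposited a whole-number count for 19215 symbols per library. The submitters' processing notes list FastQC, STAR, SAMtools, HTSeq 0.5.4p5, limma and hg19, but the series text gives Bowtie, TopHat, RSEM and a mouse genome. The files hold human symbols and HTSeq-type entries. Those entries for reads outside genes (19.3% to 22.2% of the control columns) were left out. The authors also deposited a log2 matrix, which matched log2 of the count plus 0.5 over an effective library size for 13616 genes within 5e-14 and served as an alternative.

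Testing used edgeR 4.0.16 (R 4.3.3): filterByExpr by group, TMM scaling, and 1 quasi-likelihood fit of all 10 libraries with 4 group means and 6 residual degrees of freedom. The contrast was SK-Hep1 less HepG2 among NC TuD groups, two-sided, with Benjamini-Hochberg adjustment over 13349 genes. A gene with no count in a line was set at 3 counts over that line's libraries to give a least fold. Gene lists, members and tests were chosen with earlier results of these data known. Named genes are, per direction, the 12 called genes with the largest count share, the 8 largest folds at 20 CPM or more, and 10 near 0 in the other line. Up to 4 called members per list and a fixed short set were added. Of these, genes of the Y chromosome and a few others are not reported here. RefSeq names matched 17701 symbols directly and 1342 through a synonym. Promoter windows existed for 74.4% and 76.4% of the genes at least 4-fold apart, under the 80% needed, so no motif share over those genes is given. Alternatives were scaling, filters, the samples fitted, robust estimation, the replicate block, each control library left out, DESeq2 1.42.0, limma 3.58.1 on the matrix, and other fold limits.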

Additional observations from a re-analysis of the deposited data

Results flagged for a closer look

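For 38 of the named genes the difference between SK-Hep1 and HepG2 was not the same with the miR-17 decoy as with the control decoy, by edgeR's test of that difference over all genes. The value given is the line difference in the miR-17 TuD libraries minus that in the NC TuD libraries, on the log2 scale. The line difference had the same sign in both arms for 38 of 38. In 6 of them an arm of a line held at most 3 counts, so that the fitted value depends on the prior count and is no bound.

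Some transcripts abundant in HepG2 and low in SK-Hep1 had large negative values. They were -6.56 for APOA1, -5.11 for AHSG, -5.00 for LYZ and -4.74 for ALB. A2M had -3.20, APOA2 -3.52, AFP -2.30 and GPC3 -2.002. Each rests on few SK-Hep1 counts. APOA1 had 8 and 19 in the NC TuD libraries and 0 and 0 in the miR-17 TuD libraries. LYZ had 13 and 35 against 1 and 0, and GPC3 had 11 and 40 against 2 and 7. SK-Hep1 NC TuD replicate 2 was the higher in each of these.

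At similarly low counts, HGD and FGG went the opposite way. HGD had 5.34, from 0 and 0 counts in SK-Hep1 NC TuD and 5 and 4 in SK-Hep1 miR-17 TuD. FGG had 2.77, from 2 and 3 counts and 11 and 13. SNAI2 had -3.39, resting on few HepG2 counts, 1, 0 and 0 in HepG2 NC TuD and 6, 5 and 4 in HepG2 miR-17 TuD.

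In well-counted genes the values were smaller. Among genes of adhesion, matrix and contraction, SDPR had -0.86, ITGA3 -0.78, MYL9 -0.70, COL1A1 -0.69, TAGLN -0.42, CDH2 -0.36, TGM2 -0.28 and MYH9 -0.27. The YAP target CTGF had 0.35 and the secreted SPP1 -0.34. Immune genes were PSMB9 at -0.99, IL8 at -0.86, HLA-F at -0.73 and HLA-B at -0.36. Receptors and their feedback gave -0.35 for AXL, -0.33 for EGFR and 0.98 for SPRY1. Cell cycle genes gave -0.52 for CCNE2, -0.38 for MKI67, -0.24 for CDKN1A and -0.22 for PLK1. The keratins gave -0.25 for KRT8 and -0.23 for KRT18. CPS1 had 0.75, PEG10 -0.21, RPL6 0.19 and RPLP0 0.17. Whether the decoy or the making of the stable lines underlies these values cannot be told apart.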

How the results depend on the processing

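The counts of genes called ranged from 5653 to 6244 higher in SK-Hep1 and from 5408 to 5973 lower over 15 alternatives. With a fold limit of 2, 2967 and 3027 genes were called higher and lower in place of 1822 and 1809. The other alternatives kept the 4-fold counts within 1.5 times. Of the 3631 genes called at 4-fold, 3474 to 3631 were called in each setting that changed the fit. The test of the difference between arms called 239 genes with limma on the deposited matrix and 324 with a replicate block, against 500; leaving out 1 control library gave 289 to 516. The cause was not tested. With the replicate block, 5762 genes were called higher and 5618 lower. Deviations of same-numbered control libraries of the lines had correlations of -0.0007 and -0.038. With 2 SK-Hep1 libraries the deviations of that line mirror each other, so this cannot settle whether the numbers pair libraries. Pairing across the decoy arms was not examined. The ribosomal protein median changed sign, to 0.0489 with upper-quartile scaling and 0.0376 without scaling. Of 2832 pairs of a named gene and a setting, 2821 stayed on the same side of the threshold, 11 lost the call (YAP1 and HMGA2) and 0 reversed. Without 1 library, 39 of 189 named genes moved by over 1.5-fold, 24 of them with at most 3 counts in the lower line and 15 with more. In a single library, levels below 0.197 to 0.239 CPM cannot be told from 0. The least folds use 3 counts over all control libraries of a line, which is 0.0750 CPM in HepG2 and 0.102 CPM in SK-Hep1.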

Other observations

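Some named genes lay outside the lists. In SK-Hep1, AHNAK, a giant scaffold at the plasma membrane, stood at 354, 407 and 401 CPM in the HepG2 libraries and 2979.9 and 2986 CPM in the SK-Hep1 libraries (2.94 ± 0.04, adjusted p = 5.44e-54 by edgeR). ANXA2, a calcium-dependent membrane binder, stood at 209, 212 and 207 CPM in the HepG2 libraries and 2435 and 2416 CPM in the SK-Hep1 libraries (3.54 ± 0.037). TIMP3, which blocks metalloproteinases, stood at 212, 208 and 226 CPM in the HepG2 libraries and 2303 and 2187 CPM in the SK-Hep1 libraries (3.38 ± 0.038). TXNRD1, a reductase of the oxidative stress response, was higher in SK-Hep1 at 427, 441 and 417 CPM in the HepG2 libraries and 1781 and 1790.1 CPM in the SK-Hep1 libraries (2.06 ± 0.036).

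Several SK-Hep1 transcripts had 1 or 2 counts over the 3 HepG2 libraries. ALDH1A3, which makes retinoic acid, stood at 213 and 218 CPM in SK-Hep1 (count ratio 4318, interval 1195 to 35664). S1PR1, a lipid receptor best known from endothelium and lymphocytes, stood at 192 and 193 CPM (count ratio 3844, interval 1064 to 31749.8). CCDC80, a secreted matrix protein, stood at 363 and 365 CPM (count ratio 7284, interval 2016 to 60155), and G0S2, an inhibitor of fat breakdown, at 156 and 183 CPM (count ratio 6798, interval 1219.6 to 268579). In HepG2, CFI, a complement regulator, stood at 199.96, 211 and 186 CPM with 1 SK-Hep1 count (count ratio 5849.8, interval 1049.6 to 231083), and CYBA, a subunit of NADPH oxidase, at 144, 138 and 161 CPM with 3 (count ratio 1452, interval 497 to 7043).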
